A study of Mus musculus with 6 samples.

Results

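Genes of the unfolded protein response and of the folding machinery of the endoplasmic reticulum (ER) were followed through RNA sequencing of P19 cells. The set was a fixed list of 35 gene symbols, matched to the gene names of the deposited table, and all 35 were found among its 34745 genes. It held 21 chaperones and folding enzymes, 10 genes of ER-associated degradation, 3 sensors or transcription factors (Xbp1, Atf6 and Ern1) and 1 translocon subunit (Sec61b). P19 is a mouse embryonal carcinoma line, here grown in alpha-MEM with fetal bovine serum and antibiotics. The 3 control libraries were untreated and the 3 others came from cells treated with the peptide PDTLN1, with neither dose nor duration stated, and the comparison asks which mRNAs differed after the peptide. The labels do not tie the libraries of a group to separate cultures, and the p-values therefore measure spread among these libraries that may be technical. In bulk RNA, fewer cells with a transcript and less transcript per cell cannot be told apart.

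Secreted and membrane proteins enter the ER unfolded, and resident chaperones such as BiP (Hspa5) bind them until disulfide bonds, glycans and prolines are in place. When unfolded proteins accumulate, the sensors IRE1 (Ern1), ATF6 and PERK raise transcription of chaperones, of folding enzymes and of the degradation machinery that returns failed proteins to the cytosol for the proteasome. IRE1 acts by splicing the Xbp1 mRNA, ATF6 by releasing its own cytosolic domain as a transcription factor, and PERK through translation of ATF4. Gene counts do not show the splicing of Xbp1 or the cleavage of ATF6.

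Total counts per library ran from 10381307 to 11663081. Of 8 embryonal carcinoma markers, 6 passed the filter on low counts, and their list summed to 2652 to 2761 CPM (counts scaled to a fixed library size) in control and 2507 to 2603 in PDTLN1 libraries. The defining markers Pou5f1 and Lin28a were high in every library, whereas Zfp42 and Dppa5a were at or near 0. The extraction text speaks of retinas. Of 13 retina markers 1 passed the filter, Arr3, Crx, Opn1mw and Opn1sw were at 0 in all libraries, and the list summed to 3.50 to 3.94 CPM in control and 2.03 to 4.10 in PDTLN1 libraries. A list of 5 further markers held Ins1, Ins2, Amy1 and Jchain of secretory cells, which hold much ER, and Prm1 of spermatids. Ins1, Ins2 and Prm1 were at 0 in all libraries, and the list summed to 0.717 to 0.938 and 1.26 to 1.88 CPM. The 4 blood markers summed to 4.59 to 5.02 and 4.70 to 5.82 CPM.

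No gene of the list passed the test for a difference between PDTLN1 and control. All 35 genes passed the filter on low counts and were tested with edgeR's quasi-likelihood test, adjusted by Benjamini-Hochberg over 13836 genes at a threshold of 0.05. None of the 35 passed, with adjusted p = 0.989 for each, and none passed with DESeq2 (adjusted p = 1.00 for each). Among all genes tested, 3 passed with edgeR, a share of 0.0217%. Sel1l was the only member with an unadjusted p below 0.05, against 3.99% of all genes. No member had its 3 PDTLN1 libraries all above or all below the 3 control libraries, which 4.81% of all genes had in the higher and 4.98% in the lower direction. The fitted log2 fold change was below 0 for 23 members and above 0 for 12, with a median of -0.08. Over all genes it was below 0 for 6958 and above 0 for 6878, with a median of -0.00087.

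The libraries instead differed within each group. For many members control 2, control 3 and PDTLN1 1 were high, and control 1, PDTLN1 2 and PDTLN1 3 were low. Exactly this pattern, above the gene's own mean in those 3 libraries and below it in the other 3, was present in 18 of the 35 members and in 9.57% of all genes tested. Its mirror image was present in 4 members, Hspa5, Hspa13, Atf6 and Sec61b, and in 9.37% of all genes. Both patterns go by sign alone, with no limit on size, so that values near 0 decide some members. Ppib counted for the first pattern with a deviation of 0.00065 log2 units in PDTLN1 1. Creld2 did not count, with a deviation of 0.0012 in control 1. Control 3 was the highest library for 17 members and PDTLN1 2 the lowest for 13. Library by library, 8, 22 and 30 members lay above their own mean in control 1, 2 and 3, and 26, 11 and 9 in PDTLN1 1, 2 and 3. These patterns were chosen for description with the library values known, and the libraries were not regrouped by them. The median distance between the highest and the lowest library was 0.42 log2 units for the members and 0.41 for all genes. Among the 6 further lists described below, it was 0.82 for the PERK and ATF4 branch and 0.37 for ATF6 processing. For other folding enzymes it was 0.30, for other degradation genes 0.28, for cytosolic and mitochondrial chaperones 0.23, and for translocation and N-glycosylation 0.22. Most of these lists thus spread less than the members.

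**Figure D1:**
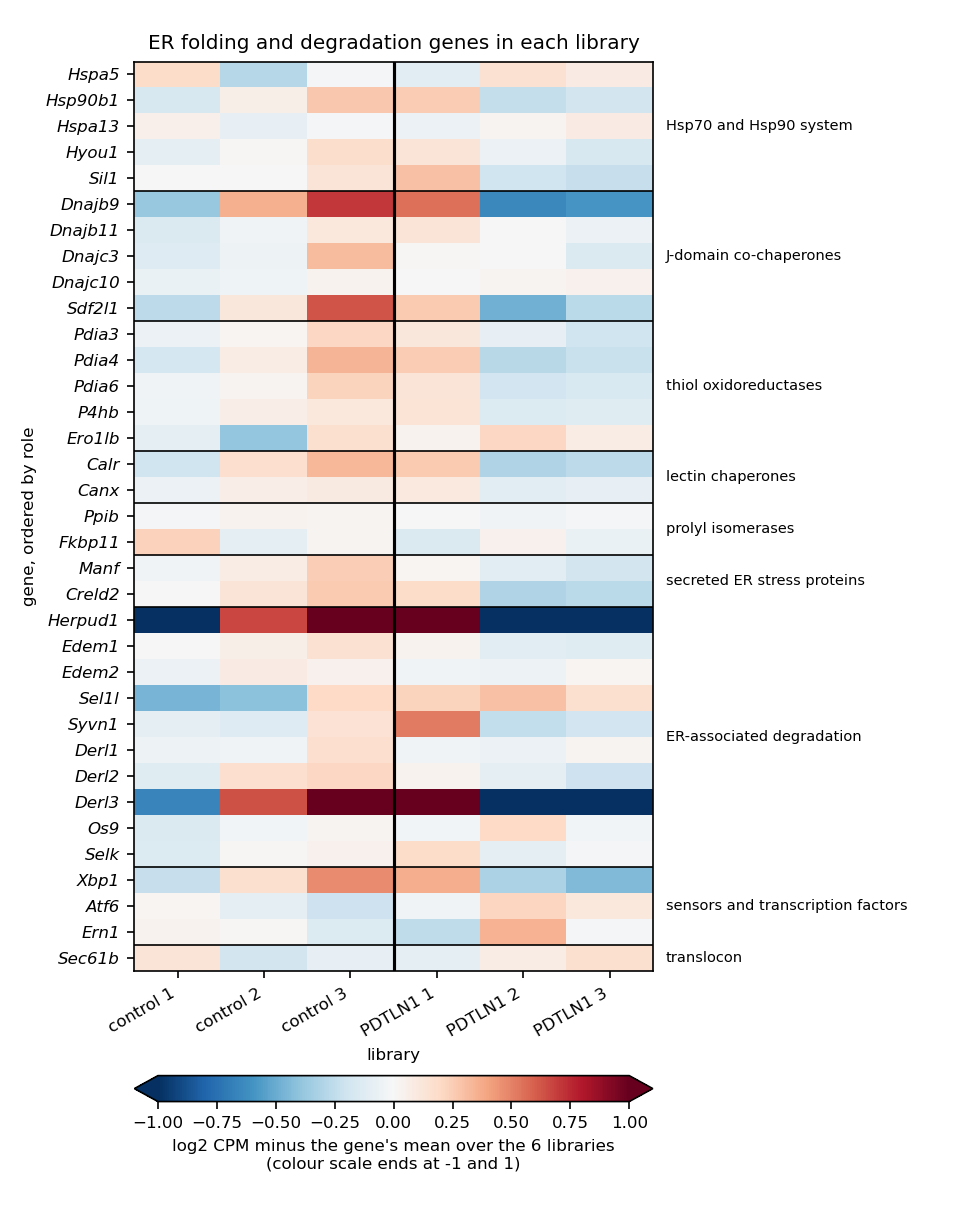
Each row is 1 of the 35 genes and each column 1 of the 6 libraries, with control left and PDTLN1 right of the thick line. Colour gives log2 CPM minus the gene's mean over the 6 libraries, with the scale ending at -1 and 1. For 18 genes, control 2, control 3 and PDTLN1 1 lie above 0 (towards red) and the other libraries below 0 (towards blue). Hspa5, Hspa13, Atf6 and Sec61b show the mirror image. Values near 0 are almost white.

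The promoters of many members carry the ER stress response element (ERSE), the site through which ATF6 and XBP1 act together with the factor NF-Y. Windows from 250 bases before to 50 after each RefSeq gene start (GRCm38.p6) were searched on both strands for exact letters, and 29 of the 35 members matched a window (not Hspa13, Hyou1, Sil1, Manf, Derl1 and Atf6). ERSE, taken as CCAAT and CCACG separated by 9 bases, was present in 10 of the 29, against 39 of 32851 windows (0.119%). ERSE-II, taken as ATTGG and CCACG separated by 1 base, was present in Dnajb11 and Herpud1, against 12 windows (0.0365%). The unfolded protein response element TGACGTGG was in none of the 29 and in 0.676% of windows. Such matches describe letters in a window and not occupied sites. The members were listed as ER stress and folding genes, so their share with ERSE is a description and not a test. The 29 members had 31 windows, and members are counted here by gene but the background by window. The elements below are a selection and do not relate the element to a library pattern. Hsp90b1, Calr, Derl3 and Herpud1 follow the common pattern, and Hspa5 its mirror image. Dnajb11 differed from the common pattern in being below its mean in control 2 and slightly above it in PDTLN1 2. Capitals mark the letters of the element, and each is written in the direction in which it reads as above.
Hspa5: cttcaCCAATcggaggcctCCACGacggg
Hsp90b1, distal: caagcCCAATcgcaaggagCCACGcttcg
Hsp90b1, proximal: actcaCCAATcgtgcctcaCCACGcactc
Calr: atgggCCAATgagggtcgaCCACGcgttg
Derl3: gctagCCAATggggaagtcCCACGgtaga
Dnajb11: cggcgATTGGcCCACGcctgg
Herpud1: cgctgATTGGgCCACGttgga

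In GRCm38.p6 these stretches lie at chr2:34772020-34772048 on the plus strand for Hspa5, at chr10:86705633-86705661 on the minus and chr10:86705528-86705556 on the plus strand for Hsp90b1, and at chr8:84847070-84847098 on the plus strand for Calr. Those of the degradation genes lie at chr10:75893237-75893265 on the minus strand for Derl3 and at chr8:94386372-94386392 on the plus strand for Herpud1. The Dnajb11 element, at chr16:22857847-22857867 on the plus strand, lies with its first capital at base 8 of the transcribed region. The Hspa5 element lies before the RefSeq start, at -65 to -47. It is nevertheless inside the Hspa5 gene of the deposited coordinates, which starts at chr2:34771970. The other genes with ERSE were Dnajc3, Pdia6, Ero1lb, Canx, Creld2 and Syvn1. Of these, Pdia6 and Canx showed the common library pattern, and Dnajc3, Ero1lb, Creld2 and Syvn1 did not. By role, ERSE was found in 8 of 17 folding genes and 2 of 9 degradation genes with a window. Herpud1 also held the CARE motif of ATF4, taken as TGATG and AA separated by 1 base, between -112 and -105 on the opposite strand, which no other member held and 3.97% of windows held.

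**Figure D2:**
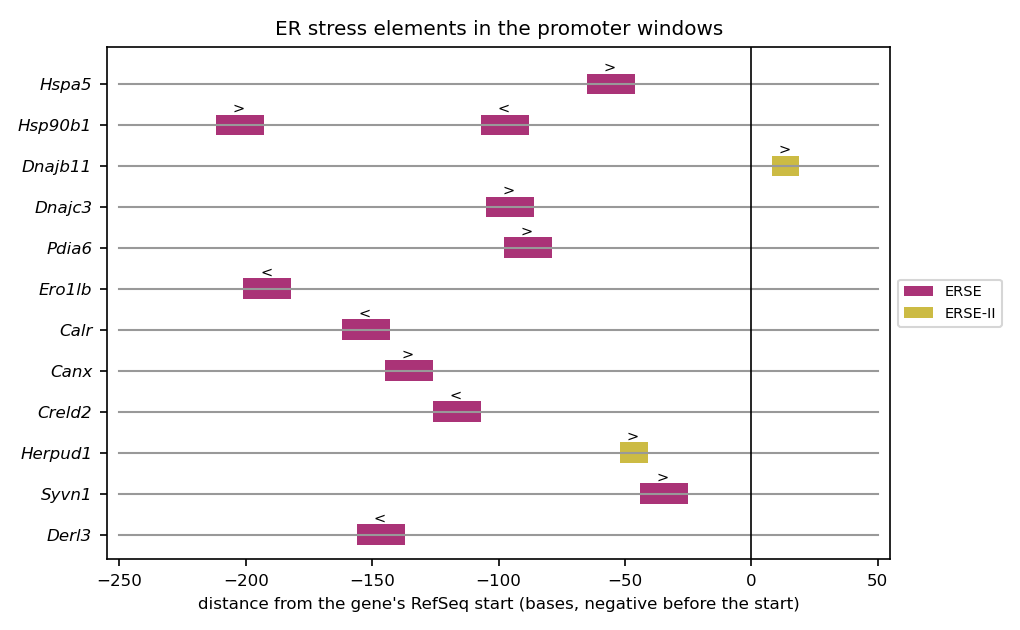
Grey lines are the promoter windows of the 12 genes with an element, by distance in bases from the RefSeq start. Boxes are ERSE or ERSE-II, and arrowheads give the strand relative to the gene. Elements start between -212 and 8, and Hsp90b1 alone holds 2 copies of ERSE.

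Herpud1, the member with the widest spread among those well above the count floor, and Hsp90b1, with its 2 elements, are shown with the sequence before the gene, which ends at the start of the gene model for Hsp90b1 (chr10:86705510-86705694, minus strand) and at the RefSeq start for Herpud1 (chr8:94386179-94386428, plus strand). The capitals again mark the letters of ERSE and ERSE-II, and a CGTGG before ATTGG is ERSE read from the other strand.
Hsp90b1: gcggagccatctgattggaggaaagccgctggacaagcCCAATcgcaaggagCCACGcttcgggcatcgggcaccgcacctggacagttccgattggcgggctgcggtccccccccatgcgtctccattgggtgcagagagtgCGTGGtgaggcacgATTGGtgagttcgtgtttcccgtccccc
Herpud1: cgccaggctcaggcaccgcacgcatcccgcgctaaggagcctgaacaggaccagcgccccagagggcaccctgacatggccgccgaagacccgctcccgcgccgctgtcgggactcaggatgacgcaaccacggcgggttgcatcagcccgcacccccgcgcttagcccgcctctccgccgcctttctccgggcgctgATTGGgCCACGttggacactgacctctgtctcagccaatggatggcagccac

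The sensors stand first in the pathway, and each had overlapping groups. Gene coordinates are those of the deposited table and equal GENCODE M21 on GRCm38 for 23 of the 35 members. Xbp1 (chr11:5520659-5525893), whose spliced mRNA encodes the transcription factor of the IRE1 branch, stood at 73.6, 96.5 and 120 CPM in control 1, 2 and 3 and at 111, 69.3 and 63.5 CPM in PDTLN1 1, 2 and 3. It was high in control 2, control 3 and PDTLN1 1. Only PDTLN1 1 lay within the control range, PDTLN1 2 and 3 lay below it, and the log2 fold change was -0.25 (SE 0.27, unadjusted p = 0.390 with edgeR's quasi-likelihood test). Atf6 (chr1:170704674-170867771), the membrane-bound factor of the second branch, read 44.8, 41.4 and 38.3 CPM in control and 43.1, 51.3 and 47.7 CPM in PDTLN1 libraries. Here PDTLN1 2 and 3 lay above every control library, and PDTLN1 1 did not. Its log2 fold change was 0.19 (SE 0.10, unadjusted p = 0.0890 with edgeR). Ern1 (chr11:106394650-106487852), the kinase and nuclease that splices Xbp1, gave 27.4, 26.9 and 24.2 CPM in control and 22.4, 34.0 and 26.3 CPM in PDTLN1 libraries, with a log2 fold change of 0.08 (SE 0.15). The highest and the lowest of its values were both PDTLN1 libraries.

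By the deposited FPKM, chaperones and folding enzymes ranked highest among the members. Calr had the highest mean over the libraries, 267 FPKM (fragments scaled by gene length and library size), followed by Hsp90b1 at 250.03, P4hb at 205, Ppib at 196, Pdia3 at 168, Canx at 160, Pdia4 at 111 and Hspa5 at 101 FPKM. The degradation genes were lower, from 2.86 FPKM for Derl3 to 31.7 for Selk, and the sensors Ern1 and Atf6 read 2.52 and 4.75 FPKM. Ero1lb was the lowest of all members at 1.73 FPKM. The gene lengths used for FPKM were not given, and this order depends on them. In CPM, Hspa5 stood above Pdia4, with means of 688 and 321 in control and 725 and 289 in PDTLN1 libraries.

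BiP and its ER partners did not move as a block. Hspa5 (chr2:34771970-34777547), which encodes BiP, the main Hsp70 of the ER, stood at 796, 575 and 694 CPM in control and 648, 782 and 744 CPM in PDTLN1 libraries. Its highest and lowest values were both control libraries. The log2 fold change was 0.07 (SE 0.12, unadjusted p = 0.558 with edgeR), on means of 688 ± 110 and 725 ± 68.8 CPM (SD, n = 3 per group). Hsp90b1 (chr10:86690209-86705509), the Hsp90 of the ER also known as GRP94, gave 1197, 1395 and 1616 CPM in control and 1595, 1135 and 1176 CPM in PDTLN1 libraries. It was lowest where Hspa5 was high, in control 1, PDTLN1 2 and PDTLN1 3. Both promoters hold an ERSE, as shown above. Its log2 fold change was -0.11 (SE 0.16).

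Hyou1 (chr9:44379490-44392369), an Hsp110-like exchange factor of BiP, followed Hsp90b1 with 272, 293 and 328 CPM in control and 319, 278 and 260 CPM in PDTLN1 libraries. The log2 fold change was -0.06 (SE 0.09). Sil1, another exchange factor, lay between 11.9 and 17.2 CPM, with its highest library in PDTLN1 1 and its lowest in PDTLN1 3. Hspa13, a further Hsp70-like protein, varied least in this class, from 80.1 to 89.4 CPM, and shared the mirror pattern of Hspa5.

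Among the J-domain co-chaperones, which deliver substrates to BiP and stimulate its ATPase, Dnajb9 and Sdf2l1 spread most. Dnajb9 (ERdj4, chr12:44205897-44210068) stood at 14.4, 24.0 and 30.7 CPM in control and 27.5, 11.9 and 12.4 CPM in PDTLN1 libraries. The highest library was 2.58 times the lowest, and the log2 fold change of -0.43 had an SE of 0.43. Sdf2l1 (chr16:17130138-17132383), a partner of the J-domain proteins that itself lacks a J-domain, gave 22.3, 28.9 and 41.4 CPM in control and 31.9, 19.1 and 22.1 CPM in PDTLN1 libraries (log2 fold change -0.34, SE 0.27). Both genes were high in the same 3 libraries as Hsp90b1. Dnajb11 (ERdj3, chr16:22857845-22879634), the highest of the class by FPKM, was steadier, at 146, 157 and 174 CPM in control and 177, 162 and 155 CPM in PDTLN1 libraries. Dnajc3, the P58IPK co-chaperone, lay between 49.7 and 68.7 CPM and was highest in control 3. Dnajc10, which also reduces disulfides, lay between 132 and 142 CPM.

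The thiol oxidoreductases, which make and rearrange disulfide bonds, followed the common pattern except for Ero1lb. Pdia6 (chr12:17266545-17284770) stood at 391, 409 and 469 CPM in control and 438, 352 and 362 CPM in PDTLN1 libraries, with a log2 fold change of -0.14 (SE 0.10, unadjusted p = 0.191 with edgeR). Pdia3 (ERp57, chr2:121413775-121438687), which works with the lectin chaperones on glycoproteins, gave 635, 671 and 765 CPM in control and 717, 628 and 578 CPM in PDTLN1 libraries. P4hb (chr11:120560298-120573253), the classical protein disulfide isomerase, gave 750, 810 and 830 CPM in control and 849, 703 and 712 CPM in PDTLN1 libraries. For these 3 genes PDTLN1 2 and PDTLN1 3 lay below every control library and PDTLN1 1 above at least 2 of them. Pdia4 (chr6:47796141-47813430), chosen here after its values were seen, had the widest spread of the 4 disulfide isomerases, from 249 CPM in PDTLN1 2 to 381 CPM in control 3. Ero1lb, the oxidase that recharges them, lay between 5.53 and 8.43 CPM, with its lowest value in control 2 and its highest in PDTLN1 2.

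Calr and Canx encode calreticulin and calnexin, the soluble and the membrane-bound lectin chaperone that hold glycoproteins during folding. Calr (chr8:84841850-84846934) stood at 974, 1260 and 1411 CPM in control and 1343, 910 and 932 CPM in PDTLN1 libraries, or 1215 ± 222 and 1062 ± 244 CPM (SD, n = 3 per group). Its log2 fold change was -0.19 (SE 0.20, unadjusted p = 0.377 with edgeR). Canx (chr11:50293961-50325673) was above its mean in the same 3 libraries but spread less, with 1161, 1268 and 1287 CPM in control and 1294, 1127 and 1141 CPM in PDTLN1 libraries. Calr was highest in control 3 and Canx in PDTLN1 1. The ratio of the highest to the lowest library was 1.55 for Calr and 1.15 for Canx.

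The prolyl isomerases, which turn peptide bonds before proline, showed no large spread. Ppib (cyclophilin B, chr9:66060169-66066629) read 187, 193 and 193 CPM in control and 189, 184 and 186 CPM in PDTLN1 libraries, a spread of 1.05-fold that was the smallest of the 35 members. Fkbp11 (chr15:98724373-98728198) gave 18.9, 15.1 and 16.4 CPM in control and 14.5, 16.5 and 15.3 CPM in PDTLN1 libraries.

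Manf and Creld2, small proteins that are released from cells under ER stress, came closest among the folding genes to a difference between the groups. Manf (chr9:106838312-106891979) stood at 171, 184 and 208 CPM in control and 178, 162 and 154 CPM in PDTLN1 libraries. Only PDTLN1 1 overlapped the control range, and the log2 fold change was -0.19 (SE 0.08, unadjusted p = 0.0518 with edgeR, adjusted p = 0.989). Creld2 (chr15:88819646-88826681) gave 76.5, 83.5 and 91.6 CPM in control and 86.6, 62.0 and 63.5 CPM in PDTLN1 libraries (log2 fold change -0.25, SE 0.14, unadjusted p = 0.102 with edgeR). In the annotation, exons of Manf overlap those of Dcaf1 and Rbm15b, and with the strand of counting unknown their reads may not be separable. The same holds for Pdia3 with Catsper2, Pdia6 with Atp6v1c2, Ppib with Snx22, Syvn1 with Mrpl49 and Derl2 with Mis12. Exons of Hsp90b1 also overlap a processed transcript, a miRNA and a transcribed pseudogene. Those of Sil1 overlap antisense genes, and those of Dnajb9 and Pdia4 a miRNA each. In all, 10 members had such an overlap.

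**Figure D3:**
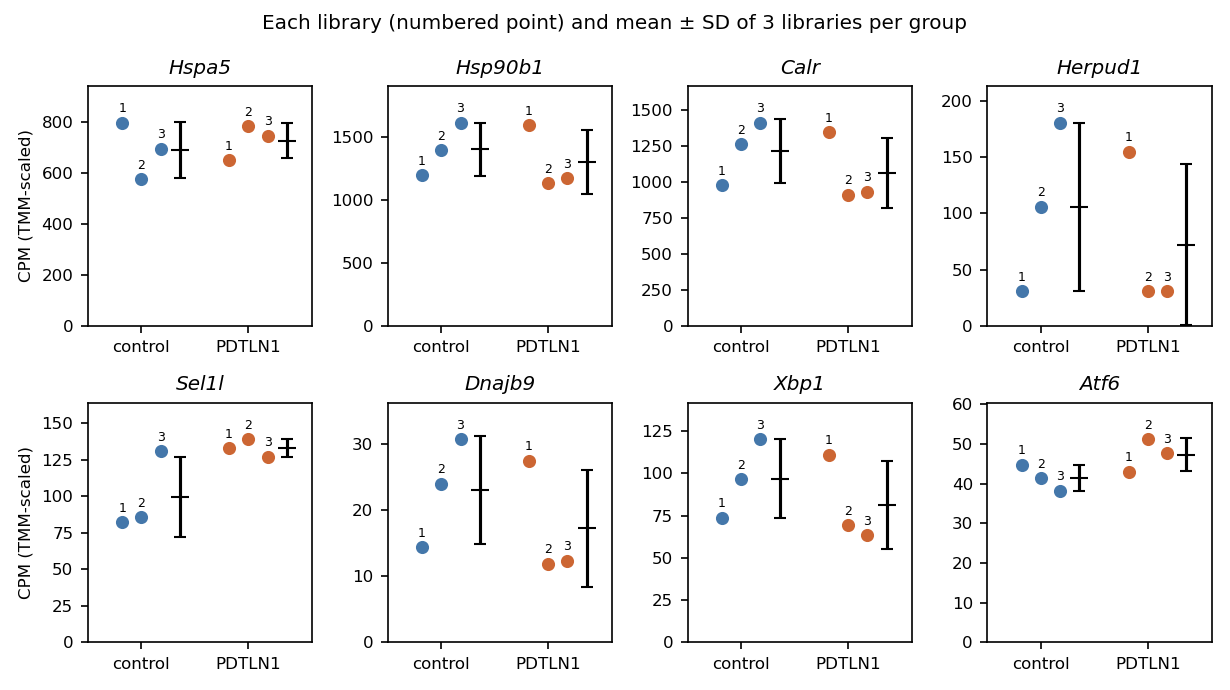
CPM of 8 members in each library (points, numbered by library) with the mean and SD of the 3 libraries per group (black bars), on axes that start at 0. Points of both groups overlap in all 8 panels, with PDTLN1 1 beside the higher control libraries for Hsp90b1, Calr, Herpud1, Dnajb9 and Xbp1.

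Among the degradation genes, Herpud1 and Derl3 spread the most. Herpud1 (chr8:94386438-94395377), a membrane protein that helps to assemble the retrotranslocation complex, was chosen for full values after they were seen. It stood at 30.6, 106 and 181 CPM in control 1, 2 and 3 and at 155, 30.8 and 30.9 CPM in PDTLN1 1, 2 and 3. Control 1 thus sat at the level of PDTLN1 2 and 3, and the highest library was 5.90 times the lowest. The log2 fold change of -0.56 had an SE of 1.01 (unadjusted p = 0.606 with edgeR). Derl3 (chr10:75893398-75895941), a derlin of secretory tissues likewise chosen afterwards, had 14, 38 and 119 counts in control and 64, 3 and 11 counts in PDTLN1 libraries. With 3 counts in its lowest library no ratio is given. It was highest in the same 3 libraries as Herpud1.

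Sel1l (chr12:91806043-91849157), the scaffold that joins the ubiquitin ligase HRD1 to its substrates, departed from the common pattern in a way shared with Dnajc10 and Ero1lb. These genes lay below their own means in control 1 and 2 and above them in the other 4 libraries. Sel1l read 82.4, 85.6 and 131 CPM in control and 133, 139 and 127 CPM in PDTLN1 libraries. Its control 1 and 2 were thus low, and its other 4 libraries lay close together. The log2 fold change was 0.42 (SE 0.17, unadjusted p = 0.0471 and adjusted p = 0.989 with edgeR). Without control 3, the control library at the PDTLN1 level, it was 0.66 (SE 0.08, adjusted p = 0.0506 with edgeR). That fit is singled out for the Sel1l value of control 3, so it describes the remaining libraries and supports no effect of the peptide. Over the other alternatives the adjusted p ran from 0.599 (edgeR, without both libraries numbered 1) to 1.00. Syvn1, which encodes HRD1 itself, lay between 45.3 and 59.4 CPM in 5 libraries and at 77.2 CPM in PDTLN1 1. In PDTLN1 2 and 3, Sel1l lay above its own mean and Syvn1 below.

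The remaining degradation genes spread less than Herpud1, Derl3, Sel1l and Syvn1. Edem1, Derl2 and Selk among them still showed the common pattern. Edem1 (chr6:108828641-108859356), which trims mannose from misfolded glycoproteins, gave 109, 114 and 122 CPM in control and 112, 101 and 100.4 CPM in PDTLN1 libraries. Selk, a selenoprotein of the ER membrane that binds derlins and the highest of the class by FPKM, gave 41.2, 45.7 and 46.6 CPM in control and 51.4, 42.4 and 45.0 CPM in PDTLN1 libraries. Highest over lowest library came to 1.21 for Edem1 and 1.25 for Selk. The same ratio was 1.10 for Edem2, 1.17 for Derl1, 1.33 for Derl2 and 1.27 for Os9, a lectin that recognises trimmed glycans. Sec61b (chr4:47474658-47483242), the beta subunit of the translocon through which proteins enter the ER, read 38.6, 31.0 and 33.2 CPM in control and 32.8, 37.0 and 39.4 CPM in PDTLN1 libraries.

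Chaperones and degradation genes were high in the same libraries on average. In the degradation class the size of the swing, and the place of control 2 above 0, rested on Herpud1 and Derl3. The mean deviation of the 21 folding genes from their own means was -0.07, 0.01 and 0.21 log2 units in control 1, 2 and 3, and 0.12, -0.13 and -0.14 in PDTLN1 1, 2 and 3. For the 10 degradation genes it was -0.29, 0.10 and 0.46 in control and 0.35, -0.37 and -0.25 in PDTLN1 libraries. Both classes were thus highest in control 3, followed by PDTLN1 1 and control 2. Without Herpud1 and Derl3, the other 8 degradation genes gave -0.14, -0.04 and 0.12 in control and 0.11, -0.02 and -0.04 in PDTLN1 libraries, with control 3 and PDTLN1 1 still highest and the other 4 libraries below 0. The common pattern was met by 12 of the 21 folding genes and 5 of the 10 degradation genes, or 3 of 8 without those 2. Leaving out Hspa5 moved the folding values by little, to -0.08, 0.03, 0.22, 0.13, -0.14 and -0.15. Between the treatment groups, 16 of 21 folding genes had a log2 fold change below 0 (median -0.11), and 6 of 10 degradation genes did (median -0.05). Without control 3 these medians were -0.03 and 0.05, so that of the degradation genes turned its sign.

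**Figure D4:**
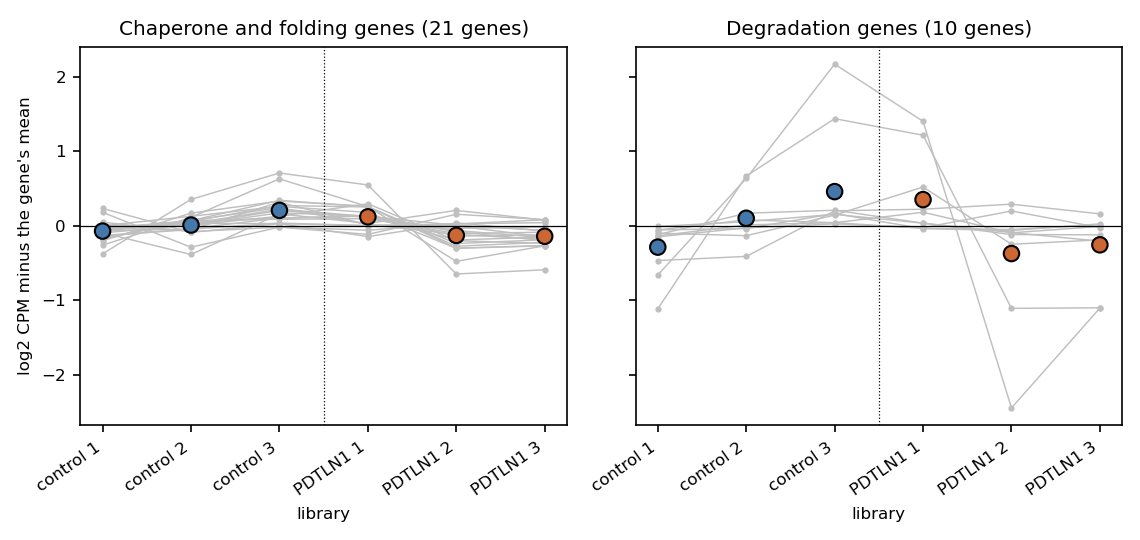
Log2 CPM minus the gene's mean over the 6 libraries, for 21 folding genes (left) and 10 degradation genes (right). Grey lines join the values of 1 gene and large points are class means, blue for control and orange for PDTLN1. Both class means are highest in control 3, at 0.21 and 0.46, and the 2 grey lines with the widest swing at the right are Derl3 and Herpud1.

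The other arms of the pathway were compared through 6 further lists. In the PERK and ATF4 branch, 0 of 16 genes passed in either direction and 12 had a log2 fold change below 0 (median -0.15), yet 11 showed the common library pattern, and the median distance between highest and lowest library was 0.82 log2 units. Its class mean was -0.41, 0.25 and 0.48 log2 units in control and 0.54, -0.61 and -0.25 in PDTLN1 libraries. Ddit3, which encodes the pro-apoptotic factor CHOP and was chosen after its values were seen, stood at 10.3, 43.4 and 71.3 CPM in control and 66.3, 7.39 and 12.3 CPM in PDTLN1 libraries, much as Herpud1 did. By the naming rule, Ppp1r15a, the stress-induced phosphatase subunit that restores translation, had a log2 fold change of 0.31 (SE 0.15, unadjusted p = 0.0779 with edgeR), Ppp1r15b, its constitutive relative, -0.08 (SE 0.07), and Eif2s1, the PERK substrate, 0.06 (SE 0.06). Ppp1r15a was also the gene of this list whose PDTLN1 libraries, at 41.0, 37.9 and 42.1 CPM, lay above all control libraries. Those stood at 24.3, 35.8 and 37.6 CPM. With 1 such gene among 16, the list was near the share of all genes, 4.81%. The part of this branch in the pattern of the 35 genes was not tested.

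ATF6 processing and related factors (12 genes) had 7 fold changes above and 5 below 0, with a median of 0.02, and 1 gene with the common pattern. Gtf2i, a factor that binds the ERSE, had a log2 fold change of 0.08 (SE 0.06), Nfyb, a subunit of NF-Y, -0.12 (SE 0.07), and Creb3l4, an ATF6 relative, -0.18 (SE 0.22). None of the 12 passed.

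Other ER enzymes outside the 35 showed the common pattern at a share near that of all genes, 9.57%. Of 33 further folding enzymes 0 passed, 13 lay above and 20 below 0 (median -0.02), and 4 had the common pattern. The smallest p-values were those of Serpinh1, the collagen chaperone (log2 fold change -0.30, SE 0.13, unadjusted p = 0.0518 with edgeR), Clgn, the calnexin of testis (-0.44, SE 0.20), and Fkbp7, a prolyl isomerase (0.43, SE 0.21). Of 26 further degradation genes 25 were found and tested, with 0 passing, 14 above and 11 below 0 (median 0.03) and 3 with the pattern. Fam8a1, a cofactor of HRD1, was at -0.16 (SE 0.07), Ngly1, which strips glycans in the cytosol, at 0.24 (SE 0.14), and Vcp, the ATPase that extracts substrates, at -0.07 (SE 0.05).

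Translocation and N-glycosylation was tested for 31 of 32 genes, with 0 passing, 10 above and 21 below 0 (median -0.02) and 1 with the pattern. Srp19, a protein of the signal recognition particle, had a log2 fold change of 0.18 (SE 0.08, unadjusted p = 0.0371 and adjusted p = 0.989 with edgeR), Srp9, of the same particle, -0.12 (SE 0.07), and Sec11a, of the signal peptidase, -0.14 (SE 0.09). Among cytosolic and mitochondrial chaperones 16 of 18 were tested, 0 passed, 9 lay above and 7 below 0 (median 0.0036), and 1 had the pattern. Hsph1, the cytosolic Hsp110, had a log2 fold change of 0.11 (SE 0.07), Hspb1, a small heat shock protein, 0.08 (SE 0.08), and Hsp90ab1, the constitutive cytosolic Hsp90, -0.05 (SE 0.06). ERSE and ERSE-II were found in the promoter windows of 0 genes in these 6 lists. CARE was found in 6 of 15 genes of the ATF4 branch with a window, Asns, Atf3, Chac1, Nupr1, Trib3 and Vldlr.

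**Figure D5:**
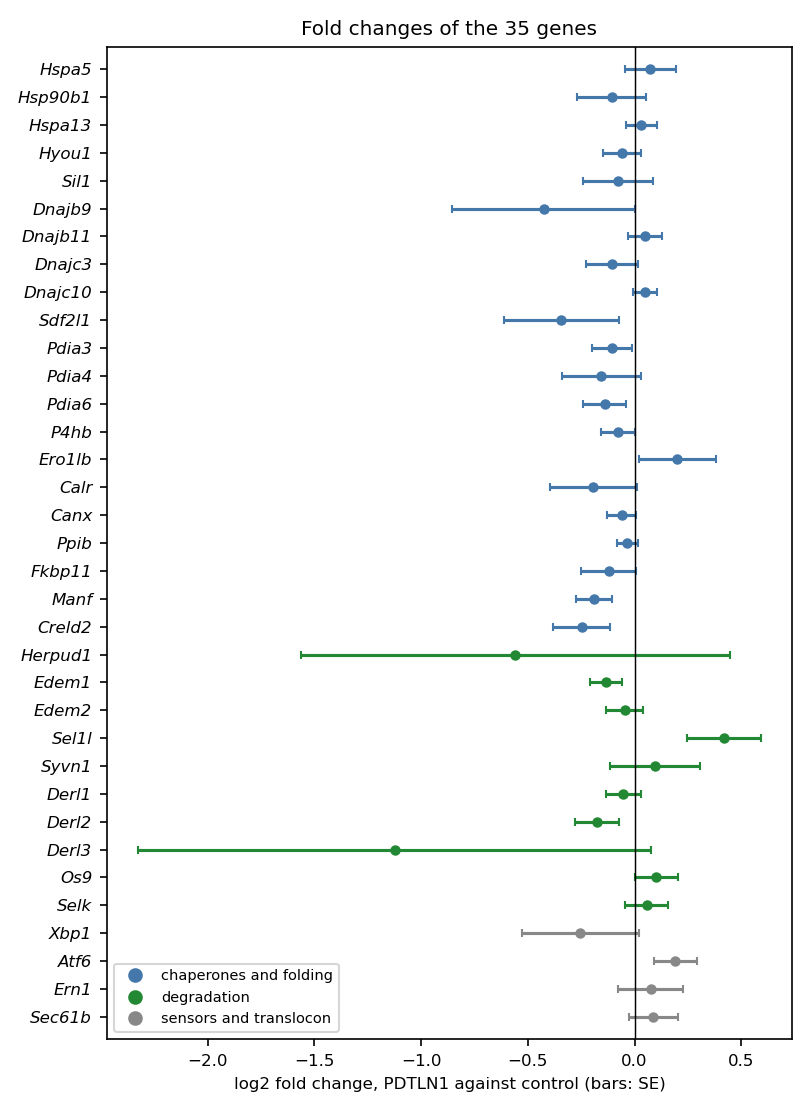
Points are log2 fold changes of PDTLN1 against control for the 35 members, and bars are 1 SE to each side. The widest bars are those of Derl3 and Herpud1, and Sel1l, at 0.42, lies farthest above 0.

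Leaving out both libraries numbered 1, an alternative chosen with their values known, removed from each group the library that went against the rest of it for these genes. In that comparison of 2 against 2, Calr (log2 fold change -0.54, adjusted p = 0.0147), Dnajb9 (-1.17, adjusted p = 0.0183) and Xbp1 (-0.71, adjusted p = 0.0451) were called lower with edgeR and 0 members higher, where 0.294% of 13949 genes were called lower. Because the libraries were picked for their values, these calls describe the remaining 4 libraries and support no effect of the peptide.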

How the data were processed

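RNA of 3 control and 3 PDTLN1 libraries was prepared with an Illumina TruSeq kit, per the labels. The authors deposited 1 table with raw gene counts and FPKM per library, per the file headers. The deposited FPKM followed the counts, with equal implied lengths across libraries (tolerance 0.1%) for 15678 of 15678 genes, so FPKM served only to compare levels between genes. Bowtie 0.12.2 and the builds mm8 and mm9 are named in the submitters' processing notes. Counter, annotation and strand: not given in the sources used here. Positions of genes matched GENCODE M21 (GRCm38) for 80.8% of 34267 identifiers, and for 23 of the 35 members.

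Counts were tested in edgeR 4.0.16 (R 4.3.3) with filterByExpr (13836 genes kept), TMM scaling and robust quasi-likelihood fits (common biological coefficient of variation 0.126). DESeq2 1.42.0 was an alternative. CPM use TMM-scaled library sizes, and log2 CPM for deviations a prior count of 2. The fits were tested on simulated counts with the same spread for every gene and no shared library pattern. That check therefore does not cover the wide spread of members such as Herpud1.

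The members, lists and tests were chosen with earlier results of these data known. Named with all values are Hspa5, the sensors and, per role class, the 2 members with the smallest p and the member with the highest mean FPKM, and from each further list the 3 genes with the smallest p. Others are said to have been chosen after their values were seen. Alternatives were a replicate block, leaving out each library, other scaling, filters and thresholds, and, for library levels, FPKM with a pseudocount of 0.1 and a prior count of 0.5. Promoter windows came from RefSeq (GRCm38.p6), 1 per annotated start.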

Additional observations from a re-analysis of the deposited data

How the results depend on the processing

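At a threshold of 0.05, edgeR called 3 of all genes and 0 of the 35 members. The count of all genes was 1 with the replicate block, 10 with DESeq2 and 8 with no filter on low counts, and it ran from 2 to 13 when each library was left out in turn (13 with control 1 left out, 8 with PDTLN1 1, 6 with PDTLN1 2, 5 with control 3, and 2 with either control 2 or PDTLN1 3). The count of members stayed at 0 in each of these. It became 3 of 91 genes called when both libraries numbered 1 were left out, an alternative chosen after seeing the data. No label ties equal library numbers to a shared culture or day, so the numbers were not taken to pair the libraries. Across genes, deviations of same-numbered libraries from their group means correlated at r = -0.36, -0.14 and -0.10, which does not decide on pairing. The block changed no call of a member.

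Of the 35 fold changes 13 changed sign under at least 1 of 13 alternatives and 22 did not. Over the fits without 1 library, log2 fold changes ran from -0.0095 to 0.12 for Dnajb11 (-0.0070 without PDTLN1 1), -0.038 to 0.19 for Hspa5, -0.28 to 0.0072 for Hsp90b1, -0.14 to 0.016 for Hyou1, -0.19 to 0.045 for Dnajc3, -1.78 to 0.074 for Herpud1 and -0.092 to 0.022 for Derl1. They ran from -0.20 to 0.23 for Syvn1, -0.026 to 0.11 for Selk, -0.27 to 0.020 for Sil1, -0.10 to 0.20 for Ern1 and -0.00051 to 0.068 for Hspa13. Without a change of sign, Derl3 ran from -3.09 (PDTLN1 1 left out) to -0.036 (control 3 left out), Xbp1 from -0.54 to -0.07, Dnajb9 from -0.93 to -0.16, Calr from -0.40 to -0.07 and Sel1l from 0.30 to 0.66. Without both libraries numbered 1, values were -0.065 for Dnajb11, 0.011 for Fkbp11, -0.23 for Syvn1 and -0.080 for Selk. The causes were not tested. Median fold changes of the 21 folding genes ran from -0.17 to -0.03 and of the 10 degradation genes from -0.12 to 0.05 over the fits without 1 library. With 3 libraries per group, and Derl3 down to 3 counts, differences of the size of the SEs given were not detectable.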
